A study of Mus musculus with 68 samples.

Results

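The INK4 and CIP/KIP families of inhibitors of the cyclin-dependent kinases (CDKs) comprise 7 genes, and all 7 were measured here by RNA sequencing in stromal cultures from mouse long bones. They were taken from the deposited table by gene symbol, as Cdkn2a, Cdkn2b, Cdkn2c and Cdkn2d (the INK4 family) and Cdkn1a, Cdkn1b and Cdkn1c (the CIP/KIP family), which made 7 of the 27179 gene identifiers counted. All 7 passed the filter on low counts. They were chosen as whole families, with earlier results of these data known. INK4 proteins bind CDK4 and CDK6 and keep them from pairing with D-type cyclins, so that the retinoblastoma protein stays active and E2F target genes stay off. CIP/KIP proteins bind complexes of cyclins with CDK2 and other CDKs. In cultured mesenchymal cells the Cdkn2a locus is a known target of Polycomb repressive complexes, whose methyltransferase subunit is encoded by Ezh2, and its transcripts are known to accumulate with passage and age.

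The cells were mesenchymal stromal cells (MSCs) grown in primary culture from mouse long bones. Het 12M (6 cultures) and Het 3M (3 cultures) came from Ezh2fl/+:Prxx-1-Cre mice aged 12 or 3 months, and WT 12M (4 cultures) and WT 3M (4 cultures) from Ezh2+/+:Prrx-1-Cre mice of the same ages. Both genotypes therefore carried the Cre transgene, which is driven by the Prrx1 promoter and is active in limb mesenchyme, so cells of other lineages would keep both Ezh2 alleles. The numbers of cultures are those of the labels, whereas the series text speaks of 3 samples in each group. The labels do not say whether a culture came from 1 mouse, so the p-values below measure the spread between these cultures. In a bulk culture, fewer cells of a type and less RNA per cell cannot be told apart.

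The summed depth was 13687876 to 28597221 counts per culture, and 57 to 20499 counts fell on a given inhibitor gene in a given culture. The 4 lanes of 1 culture differed by about counting error and were summed, and the closest pair of cultures was Het 3M S8 and S10. By the chi-square of their counts over genes divided by its degrees of freedom, which is about 1 for counting error alone, lanes of 1 culture lay at 1.00 to 1.09, these 2 cultures lay at 18.5 and the next closest of the 136 pairs at 40.9. Both were counted as cultures, so the n of 3 and the errors of Het 3M rest on their being separate. Sex-linked transcripts went against the labelled sex in 4 of 4 WT 12M libraries and in 0 of the other 13 libraries. Of the 4, WT 12M S7, labelled female, had both Xist, at 81.6 CPM, and Y-linked transcripts, at a mean of 35.0 CPM, so only the second went against its label. WT 12M below means the libraries labelled so. By label, Het 12M S17, Het 3M S8 and S10, WT 3M S5 and S12, and WT 12M S2 and S13 were male and the others female. Labelled sex was therefore not balanced between the groups. The stromal markers Col1a1 and Prrx1 were detected in every culture, at 1504 to 13362 CPM and 171 to 896 CPM. Het 12M S9, WT 12M S6 and Het 12M S15 stood apart from the other cultures. Het 12M S9 had a summed macrophage marker level of 42192 CPM against at most 2946 CPM elsewhere. WT 12M S6 had a summed Schwann and neural crest marker level of 1526 CPM against at most 236 CPM elsewhere. Het 12M S15 had the lowest Prrx1 level of all cultures, but the highest levels of the stromal markers Vim and Ly6a, at 19227 and 2109 CPM. It had counts for 4 of 12 Schwann and neural crest markers and 3 of 11 endothelial markers, the fewest of any culture. Sox10 and Foxd3 were at 0 CPM in it, and Foxd3 also in Het 12M S17. Its Schwann and neural crest sum was the 236 CPM above, mostly L1cam at 136 CPM and S100b at 95.7 CPM. Levels in CPM are relative to library size after TMM scaling, the trimmed mean of M values of edgeR.

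Ezh2, the gene deleted on 1 allele in Het mice, was read first as a check of the genotype labels. In Het 12M it ranged from 8.62 to 25.2 CPM, with a median of 18.2 CPM. In WT 12M it was 7.64, 35.7, 13.1 and 22.8 CPM in S2, S6, S7 and S13. In Het 3M, S8, S10 and S14 had 11.8, 12.8 and 8.47 CPM, and WT 3M cultures S3, S4, S5 and S12 had 13.6, 13.4, 14.3 and 9.17 CPM. The Het and WT ranges overlapped at both ages. Het minus WT on the fitted log2 scale was -0.16 ± 0.35 (SE) at 12 months and -0.19 ± 0.42 at 3 months. The 95% intervals, -0.91 to 0.59 and -1.09 to 0.71, included 0 at both ages. A row of the table sums all exons of a gene, floxed or not, so the 2 alleles were not separated.

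The inhibitors fell into a high and a low set when levels were put on a scale per exon length (RPKM, which divides the library-scaled count by the exon length). The median over the 17 cultures was 181 RPKM for Cdkn1a, 118 RPKM for Cdkn2a and 113 RPKM for Cdkn2b. The other members were lower, at 15.1 RPKM for Cdkn1b, 10.4 RPKM for Cdkn2d, 8.39 RPKM for Cdkn1c and 7.76 RPKM for Cdkn2c. The step between Cdkn2b and Cdkn1b held in 17 of 17 cultures. Within the sets, Cdkn1a exceeded Cdkn2a in 14 of 17 cultures and Cdkn1b exceeded Cdkn2d in 14 of 17. The remaining neighbours changed places more often, with Cdkn2a above Cdkn2b in 10 of 17 cultures, Cdkn2d above Cdkn1c in 11 of 17 and Cdkn1c above Cdkn2c in 9 of 17. With exon lengths from the comprehensive annotation instead of the basic one, Cdkn1a had a median of 138 RPKM and kept its first place. Cdkn1a, which encodes p21, held 18.7% to 55.0% of the summed RPKM of the 7 genes, with the lowest share in Het 12M S15.

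**Figure D1:**
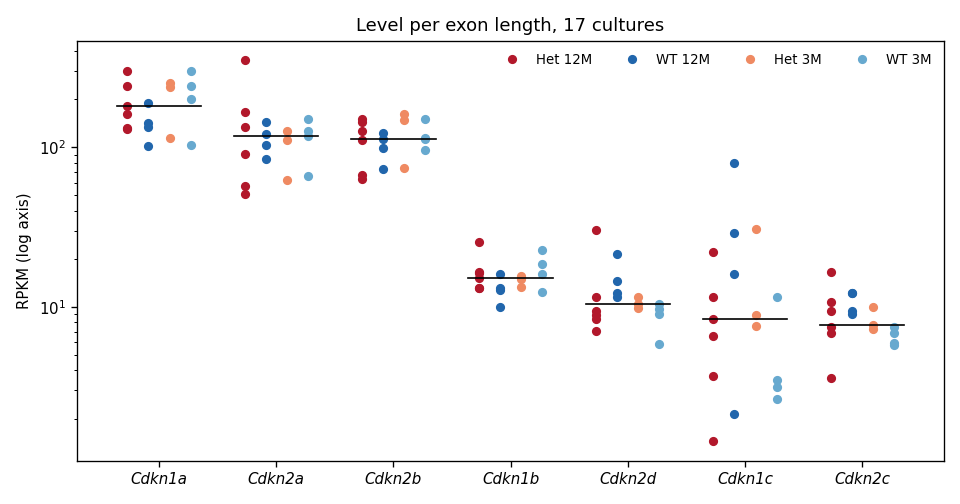
Level of each CDK inhibitor gene per exon length (RPKM, log axis) in 17 cultures, with 1 point per culture coloured by group and a black line at the median of all 17. Within a culture, Cdkn1a, Cdkn2a and Cdkn2b were above the other 4 genes in 17 of 17 cultures, and Cdkn1c, which reached 79.4 RPKM in WT 12M S2, has the widest spread.

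Across the 4 groups, no inhibitor gene passed the threshold of an adjusted p of 0.05 (edgeR quasi-likelihood test, Benjamini and Hochberg over 14897 genes) in any comparison. This was 0 of 7 genes called in each of 5 comparisons, against a background of 0% of all genes tested in each. Before adjustment, p was below 0.05 for 1 of 7 genes in Het 12M against WT 12M, with 8.34% of all genes there. It was below 0.05 for 0 of 7 in Het 3M against WT 3M, with 1.57% of all genes. In WT 12M against WT 3M it was below 0.05 for 2 of 7 genes, with 8.20% of all genes, and in Het 12M against Het 3M for 0 of 7, with 3.30%. The genotype by age interaction had 1 of 7, with 5.77% of all genes. The genes were Cdkn1c in 3 of these comparisons and Cdkn2c in 1.

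DESeq2 also called 0 of 7 members in every comparison, while limma voom with sample quality weights called 3 of 7 in WT 12M against WT 3M and 2 of 7 in the interaction. Over all genes, DESeq2 called 106 in Het 12M against WT 12M, 0 in Het 3M against WT 3M, 53 in WT 12M against WT 3M, 1 in Het 12M against Het 3M and 35 in the interaction. The voom counts for the same comparisons were 171, 1292, 1508, 1 and 939. Groups whose cultures did not overlap were seen for 2 of 7 members, Cdkn2c and Cdkn2d, in WT 12M against WT 3M, with 8.10% of all genes not overlapping there and 4.03% not overlapping and higher in WT 12M. The members that did not overlap were 0 of 7 in Het 12M against WT 12M, with 1.32% of all genes, 0 of 7 in Het 3M against WT 3M, with 6.78%, and 0 of 7 in Het 12M against Het 3M, with 1.91%.

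**Figure D2:**
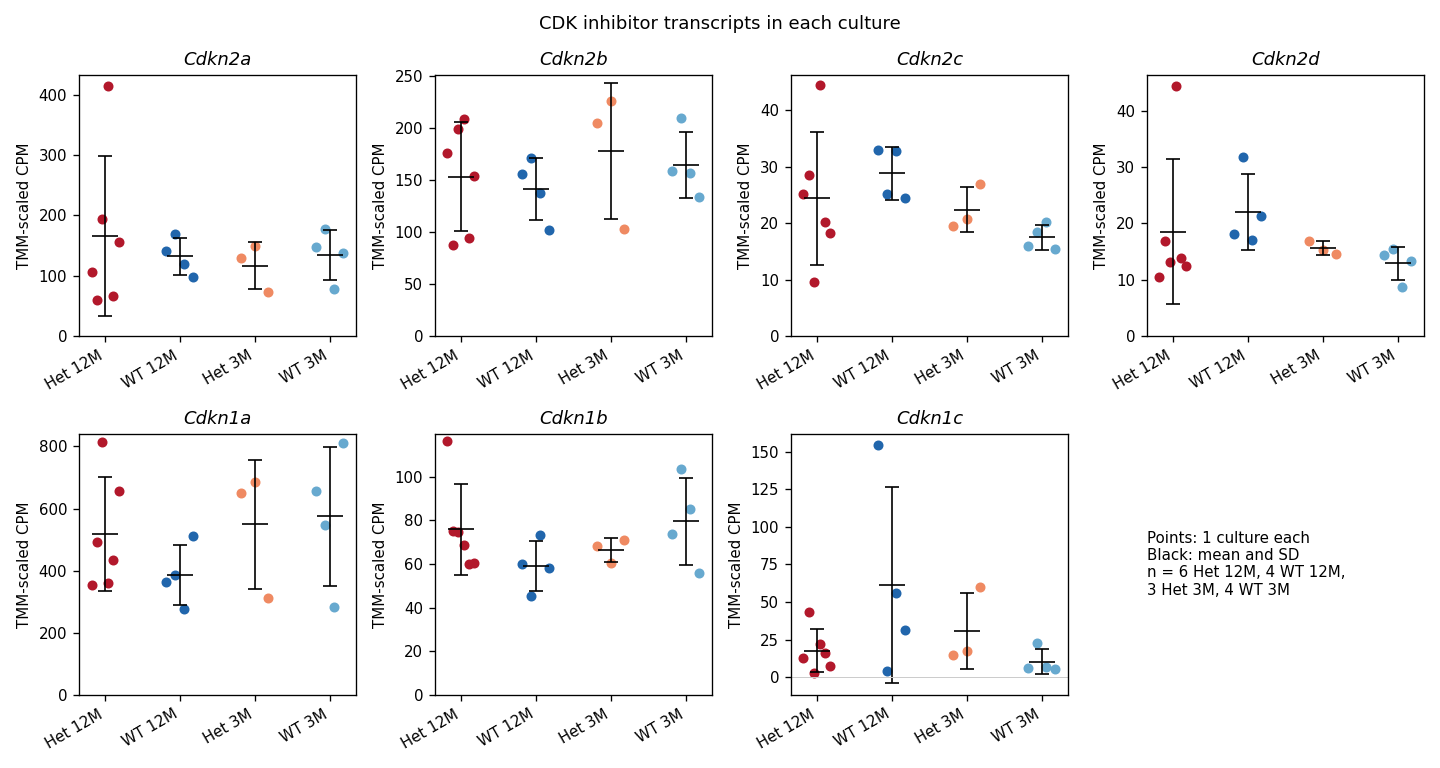
TMM-scaled CPM of each inhibitor gene (vertical axes, linear) in the 17 cultures by group, with 1 point per culture and black bars for the mean and SD. Het 12M S15 is the highest culture for Cdkn2a at 414 CPM, Cdkn2c at 44.5 CPM and Cdkn2d at 44.4 CPM, and WT 12M S2 for Cdkn1c at 154 CPM.

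Cdkn2a encodes p16Ink4a, an inhibitor of CDK4 and CDK6, and, from a separate first exon in another reading frame, p19Arf, which binds Mdm2 and stabilises p53. It lies on chromosome 4, on the minus strand, at chr4:89274473-89294619 (GRCm38.p6). The count table has 1 row for the gene (Entrez Gene 12578), so p16Ink4a and p19Arf transcripts were pooled in every value here. The neighbouring Cdkn2b, which encodes p15Ink4b, an INK4 inhibitor induced by TGF-beta, lies 11669 bases away at chr4:89306289-89311032. Cdkn2b lies within the span of the long noncoding gene Gm12610, and the library kit did not mark strand. Any reads of that transcript over Cdkn2b exons could therefore not be told from reads of Cdkn2b. Whether the exons of these genes overlap was not examined.

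RefSeq gives separate starts for the 2 Cdkn2a transcripts, 12427 bases apart. The windows from 250 bases before to 50 bases after these starts and that of Cdkn2b are shown because they are the start sites that the pooled Cdkn2a row and the Cdkn2b row add up. All 3 are on the minus strand, from RefSeq (GRCm38.p6), written 5′ to 3′. The capitals mark GC boxes, the letters GGGCGG or, on the other strand, CCGCCC.
Cdkn2a, upstream start (p19Arf), chr4:89294570-89294869: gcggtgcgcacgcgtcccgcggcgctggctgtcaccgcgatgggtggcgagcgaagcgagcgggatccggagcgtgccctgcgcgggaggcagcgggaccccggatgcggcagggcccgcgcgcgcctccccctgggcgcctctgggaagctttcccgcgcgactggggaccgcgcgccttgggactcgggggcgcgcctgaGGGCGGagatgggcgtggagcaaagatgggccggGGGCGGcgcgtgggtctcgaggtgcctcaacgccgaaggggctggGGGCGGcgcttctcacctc
Cdkn2a, downstream start (p16Ink4a), chr4:89282143-89282442: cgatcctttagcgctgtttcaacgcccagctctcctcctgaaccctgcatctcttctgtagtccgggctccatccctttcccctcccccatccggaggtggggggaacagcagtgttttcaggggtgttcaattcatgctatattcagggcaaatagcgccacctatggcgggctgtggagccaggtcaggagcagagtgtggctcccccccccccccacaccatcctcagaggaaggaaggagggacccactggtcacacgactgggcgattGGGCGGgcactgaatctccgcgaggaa
Cdkn2b, chr4:89310983-89311282: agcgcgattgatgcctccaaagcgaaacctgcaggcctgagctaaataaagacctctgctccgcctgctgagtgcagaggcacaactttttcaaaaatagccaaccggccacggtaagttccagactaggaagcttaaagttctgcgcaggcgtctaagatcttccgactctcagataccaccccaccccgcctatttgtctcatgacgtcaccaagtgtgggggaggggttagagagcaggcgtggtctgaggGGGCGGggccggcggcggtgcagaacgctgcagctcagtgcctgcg

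The upstream Cdkn2a window held 3 GC boxes and 45 CpG dinucleotides, a CpG count at or above that of 98.4% of the 32851 RefSeq windows of 300 bases. The downstream one held 1 GC box and 12 CpG, and the Cdkn2b one 1 GC box and 18 CpG, while the median window held 7 CpG. A GC box stood in 35.7% of all windows and in 7 of the 9 windows of the 6 members that have one in the table. These matches describe letters and not binding.

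Cdkn2a in Het 12M ranged from 59.4 CPM in S9 to 414 CPM in S15, with a median of 131 CPM. WT 12M cultures S2, S6, S7 and S13 had 142, 169, 120 and 98.3 CPM. Het 3M cultures S8, S10 and S14 had 130, 149 and 72.6 CPM, and WT 3M cultures S3, S4, S5 and S12 had 147, 177, 77.8 and 138 CPM. Both the lowest and the highest cultures of the series were Het 12M, and every pair of groups overlapped. The log2 difference between Het 12M and WT 12M was 0.33 ± 0.45 (95% interval -0.62 to 1.28). It was -0.19 without Het 12M S15. The log2 difference between Het 3M and WT 3M was -0.21 ± 0.53, between WT 12M and WT 3M -0.03 ± 0.49, and between Het 12M and Het 3M 0.51 ± 0.50. The last was -0.01 without Het 12M S15. On a fold scale, the 95% interval for WT 12M over WT 3M ran from 0.479 to 2.01, so changes within it remained possible. The interval is no limit of detection. Cdkn1c, at 6.05-fold in the same comparison, was not called either, with an edgeR adjusted p of 0.565. The edgeR adjusted p of the 4 Cdkn2a differences was at least 0.860.

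Cdkn2b stayed within a narrower range than Cdkn2a. In Het 12M it ran from 87.7 to 209 CPM, with a median of 165 CPM. WT 12M cultures S2, S6, S7 and S13 had 156, 171, 137 and 102 CPM. In Het 3M, S8, S10 and S14 had 205, 225 and 103 CPM, and WT 3M cultures S3, S4, S5 and S12 had 158, 209, 156 and 134 CPM. All groups overlapped, with Het 3M S10 the highest culture and Het 12M S9 the lowest. The log2 difference was 0.12 ± 0.28 between Het 12M and WT 12M, 0.11 ± 0.33 between Het 3M and WT 3M, -0.22 ± 0.31 between WT 12M and WT 3M and -0.21 ± 0.31 between Het 12M and Het 3M. All 4 had an edgeR adjusted p of 0.819 or more. The ratio of Cdkn2a to Cdkn2b, both in RPKM, was 2.35 in Het 12M S15 and 0.590 to 1.23 in the other 16 cultures.

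Cdkn2c encodes p18Ink4c and lies on the same chromosome, at chr4:109660876-109666756. Its WT 12M cultures S2, S6, S7 and S13 had 33.0, 25.3, 32.9 and 24.4 CPM. WT 3M cultures S3, S4, S5 and S12 had 16.03, 18.5, 20.2 and 15.4 CPM. Each WT 12M culture was above each WT 3M culture. The means were 28.9 ± 4.68 CPM in WT 12M and 17.5 ± 2.22 CPM in WT 3M (SD, n = 4 each), a log2 difference of 0.72 ± 0.33 with a 95% interval of 0.02 to 1.41. The unadjusted p of the quasi-likelihood model was 0.0433 and the edgeR adjusted p was 0.594, so the difference did not pass the threshold. It was 0.65 to 0.80 when any 1 culture was left out. It was 0.63 ± 0.36 with the proliferation score as a covariate, and 0.78 without the 3 cultures that stood apart. In voom with quality weights it was 0.92, with an adjusted p of 0.00749.

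In Het cultures the ages were not separated in this way for Cdkn2c. Het 12M ranged from 9.65 CPM in S11 to 44.5 CPM in S15, with a median of 22.7 CPM. Het 3M cultures S8, S10 and S14 had 19.6, 20.8 and 26.9 CPM. The Het 3M values lay inside the Het 12M range, and the log2 difference was 0.12 ± 0.33. The test of the difference between the age effects in Het and in WT gave -0.60 ± 0.46, with an edgeR adjusted p of 0.963, while voom with quality weights gave -1.16 with an adjusted p of 0.0206. Between genotypes the log2 difference was -0.24 ± 0.30 for Het 12M over WT 12M and 0.35 ± 0.35 for Het 3M over WT 3M, with both pairs overlapping.

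Cdkn2d, which encodes p19Ink4d, lies at chr9:21288459-21291421. The WT 12M cultures S2, S6, S7 and S13 had 18.1, 31.8, 17.01 and 21.3 CPM. WT 3M cultures S3, S4, S5 and S12 had 14.4, 15.4, 8.65 and 13.3 CPM. The WT groups did not overlap, and S6, with the Schwann and neural crest markers, was the highest WT 12M culture. The means were 22.0 ± 6.75 CPM in WT 12M and 12.9 ± 2.97 CPM in WT 3M (SD, n = 4 each). The log2 difference of 0.77 ± 0.39 had an unadjusted p of 0.0675 in the quasi-likelihood model and an edgeR adjusted p of 0.630. It was 0.53 without WT 12M S6 and 0.31 ± 0.36 with the proliferation score as a covariate.

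In Het 12M, Cdkn2d was 44.4 CPM in S15 and 10.5 to 16.9 CPM in the other 5 cultures, with a median over the 6 of 13.5 CPM. In Het 3M, S8, S10 and S14 had 16.9, 15.4 and 14.6 CPM. Het 12M S15 stood above every other culture of the series, and the remaining Het 12M cultures overlapped the Het 3M ones. The log2 difference between Het 12M and WT 12M was -0.25 ± 0.35, and without S15 it was -0.74, with an unadjusted p of 0.00389 in the quasi-likelihood model and an edgeR adjusted p of 0.232. Without WT 12M S6, the highest WT 12M culture, the same difference was -0.0266. The difference between Het 12M and Het 3M was 0.24 ± 0.40 with S15 and -0.24 without it. Between Het 3M and WT 3M the log2 difference was 0.27 ± 0.42.

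Cdkn1a encodes p21, an inhibitor of CDK2 complexes that is transcribed in response to p53. It lies at chr17:29090979-29100722 on the plus strand, and it had the highest counts of the family. RefSeq gives 2 start windows for it. They are shown because the upstream one holds the letters CATGNNNNNNCATG, a pair of the CATG cores found in p53 response elements. Capitals mark that match in the upstream window and GC boxes in the downstream one.
Cdkn1a, upstream start, chr17:29090729-29091028: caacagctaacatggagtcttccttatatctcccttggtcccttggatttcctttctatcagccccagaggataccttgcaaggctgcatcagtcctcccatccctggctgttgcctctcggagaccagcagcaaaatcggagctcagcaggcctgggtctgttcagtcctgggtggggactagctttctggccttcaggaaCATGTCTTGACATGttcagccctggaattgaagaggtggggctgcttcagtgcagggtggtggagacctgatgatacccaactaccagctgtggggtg
Cdkn1a, downstream start, chr17:29093519-29093818: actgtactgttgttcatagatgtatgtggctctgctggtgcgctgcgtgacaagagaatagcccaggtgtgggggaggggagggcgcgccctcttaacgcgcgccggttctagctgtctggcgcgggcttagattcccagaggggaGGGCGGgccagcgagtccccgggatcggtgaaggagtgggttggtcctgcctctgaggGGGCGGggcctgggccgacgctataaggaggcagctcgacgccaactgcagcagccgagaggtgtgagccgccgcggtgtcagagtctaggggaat

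The letters CATGNNNNNNCATG, which read the same on both strands, were found in 0.712% of all 32851 windows and in 1 of the 9 member windows. The upstream Cdkn1a window held 2 CpG and 0 GC boxes, and the downstream one 23 CpG and 2 GC boxes. The match is a description of the letters, and the gene-level counts do not separate the 2 starts.

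Cdkn1a in Het 12M ranged from 353 to 814 CPM, with a median of 464 CPM. WT 12M cultures S2, S6, S7 and S13 had 364, 387, 278 and 512 CPM. Het 3M cultures S8, S10 and S14 had 649, 686 and 311 CPM, and WT 3M cultures S3, S4, S5 and S12 had 658, 547, 283 and 811 CPM. WT 12M S7, WT 3M S5 and Het 3M S14 were the lowest cultures, Het 12M S11 and WT 3M S12 the highest, and all groups overlapped. The log2 difference was 0.43 ± 0.33 between Het 12M and WT 12M (95% interval -0.27 to 1.13), and -0.58 ± 0.36 between WT 12M and WT 3M (95% interval -1.33 to 0.18). The edgeR adjusted p was 0.733 for the genotypes and 0.652 for the ages. The voom fit with quality weights gave -0.91 for WT 12M over WT 3M, with an adjusted p of 0.0225. The log2 difference between Het 3M and WT 3M was -0.07 ± 0.39, and that between Het 12M and Het 3M -0.08 ± 0.36.

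Cdkn1b encodes p27, a CIP/KIP inhibitor controlled largely through protein turnover, and lies at chr6:134920401-134925525. It varied least, with a biological coefficient of variation of 0.263, at or above that of 14.4% of the genes tested. In Het 12M it ran from 60.1 to 116 CPM, with a median of 71.5 CPM. WT 12M cultures S2, S6, S7 and S13 had 60.0, 45.1, 73.2 and 58.2 CPM. In Het 3M, S8, S10 and S14 had 68.2, 60.3 and 70.9 CPM, and WT 3M cultures S3, S4, S5 and S12 had 73.6, 103, 85.0 and 56.0 CPM. Het 12M S1 and WT 3M S4 were the highest and WT 12M S6 the lowest, and all groups overlapped. The log2 difference was 0.36 ± 0.22 between Het 12M and WT 12M, -0.26 ± 0.25 between Het 3M and WT 3M, -0.43 ± 0.23 between WT 12M and WT 3M and 0.19 ± 0.24 between Het 12M and Het 3M. All 4 had an edgeR adjusted p of 0.639 or more. Without Het 12M S1 the Het 12M over WT 12M difference was 0.18.

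Cdkn1c encodes p57, a CIP/KIP inhibitor expressed from the maternal allele of an imprinted domain on chromosome 7, and lies at chr7:143458339-143461059. It varied most of the 7, over a 55.3-fold range, with a biological coefficient of variation of 0.814 that exceeded that of 89.9% of the genes tested, against a median over genes of 0.392. In Het 12M it ranged from 2.79 CPM in S11 to 43.0 CPM in S9, with a median of 14.6 CPM. WT 12M cultures S2, S6, S7 and S13 had 154, 4.13, 56.0 and 31.2 CPM. Within WT 12M, S2 was 37.3-fold above S6, and the Het 12M range overlapped that of WT 12M.

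Het 3M cultures S8, S10 and S14 had 14.8, 17.4 and 60.1 CPM of Cdkn1c. WT 3M cultures S3, S4, S5 and S12 had 6.15, 22.5, 6.78 and 5.14 CPM. WT 3M S4 was within the Het 3M range, and WT 12M S6 was below all 4 WT 3M cultures, so neither pair was separated. The mean was 17.4 ± 14.3 CPM in Het 12M (SD, n = 6), 61.4 ± 65.4 CPM in WT 12M (n = 4), 30.8 ± 25.5 CPM in Het 3M (n = 3) and 10.1 ± 8.27 CPM in WT 3M (n = 4).

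The log2 difference of Cdkn1c between Het 12M and WT 12M was -1.82 ± 0.79, with an unadjusted p of 0.0342 in the quasi-likelihood model and an edgeR adjusted p of 0.581. It was -0.83 without WT 12M S2, the highest culture, and -1.30 ± 0.81 with the proliferation score as a covariate. Without the 3 cultures that stood apart it was -3.04. Between WT 12M and WT 3M the log2 difference was 2.60 ± 0.92, with an unadjusted p of 0.0123 in the same model and an edgeR adjusted p of 0.565. It was 1.59 without WT 12M S2 and 3.36 without WT 3M S4. The interaction of genotype and age was -3.42 ± 1.23, with an unadjusted p of 0.0133 in the same model and an edgeR adjusted p of 0.709, and it shares the WT 12M and WT 3M cultures with the other 2 differences. For the members whose interaction has not been given, the estimate was 0.54 ± 0.70 for Cdkn2a, 0.0035 ± 0.44 for Cdkn2b, -0.53 ± 0.55 for Cdkn2d and 0.49 ± 0.51 for Cdkn1a. Cdkn1b had 0.61 ± 0.33, with an unadjusted p of 0.0833 in the same model. The edgeR adjusted p of these 5 was at least 0.908.

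The remaining Cdkn1c differences were 1.60 ± 0.94 between Het 3M and WT 3M and -0.82 ± 0.85 between Het 12M and Het 3M. Without Het 3M S14 the first was 0.66 and the second 0.10, and without WT 3M S4 the first was 2.37. In voom with quality weights the WT 12M over WT 3M difference was 3.04, with an adjusted p of 0.00795, and the interaction was -4.14, with an adjusted p of 0.0210. That fit gave the cultures weights from 0.118 for Het 12M S15 to 8.88 for Het 3M S8.

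Markers of cartilage cells went the same way as Cdkn1c between the 12-month groups. Of 12 chondrocyte markers, 11 were fitted lower in Het 12M than in WT 12M, 8 of them with an unadjusted p below 0.05 (4.92% of all genes in that direction) and 0 called, with a median log2 difference of -2.08 against 0.05 over all genes. Their summed level was 2480 to 4072 CPM in Het 12M, 3152 to 22417 CPM in WT 12M, 3947 to 17278 CPM in Het 3M and 2230 to 10700 CPM in WT 3M. The WT 12M cultures S7 and S2, with 22417 and 11172 CPM of these markers, were also the WT 12M cultures with the most Cdkn1c, and Het 3M S14, with 17278 CPM, had the most in Het 3M. Comp, which other matrix-producing cells also express, made up most of the sum in these 3 cultures. Acan, the defining proteoglycan of cartilage, was at 0 CPM in Het 12M S15 and WT 3M S4. Over all 17 cultures, the summed markers had a rho of 0.34 with Cdkn1c, and of 0.46 without the 3 cultures that stood apart. WT 3M S5 had 10700 CPM of the markers with 6.78 CPM of Cdkn1c, and WT 3M S12 had 8464 CPM with 5.14 CPM. WT 3M S4 had the least of the markers in its group, 2230 CPM, and the most Cdkn1c, 22.5 CPM. Het 12M S9 had the most Cdkn1c of Het 12M, 43.0 CPM, with 2776 CPM of the markers. Without WT 12M S7, 9 of 12 markers were fitted lower, 2 of them with an unadjusted p below 0.05, and the median was -1.20. The part of these cells in the Cdkn1c differences was not tested.

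Of the Schwann and neural crest markers, 11 of 11 were fitted lower in Het 12M than in WT 12M, against 44.3% of all genes, with 0 called and a median log2 difference of -4.25. Without WT 12M S6, 7 of the 10 still tested were fitted lower and the median was -0.62. Their summed level was 30.1 to 236 CPM in Het 12M and 32.1 to 1526 CPM in WT 12M. WT 12M S6, with 1526 CPM of them, had 4.13 CPM of Cdkn1c, the lowest in its group. For macrophage markers, 16 of 16 were fitted higher in Het 12M, against 55.7% of all genes, and 0 were called. Their sum ran from 35.7 to 42192 CPM in Het 12M and from 49.2 to 2946 CPM in WT 12M. Without Het 12M S9 the direction turned, with 3 of 16 fitted higher and 13 lower, and the median log2 difference was -0.46 instead of 2.11. Het 12M S9, the macrophage-rich culture, was the highest Het 12M culture for Cdkn1c and the lowest of the series for Cdkn2a and Cdkn2b.

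**Figure D3:**
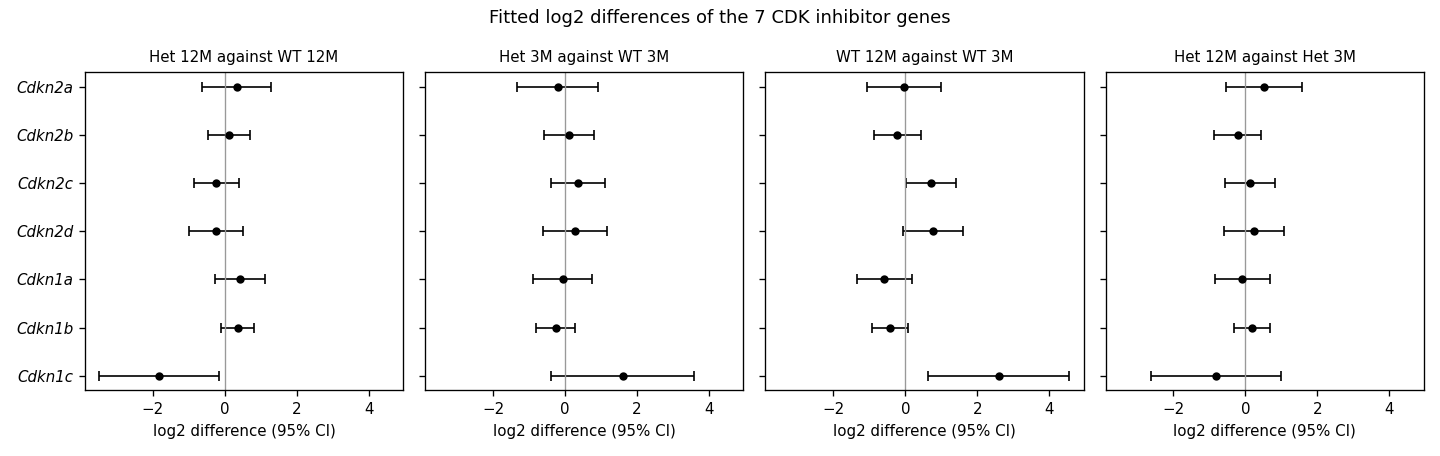
Fitted log2 difference (horizontal axis, first group named minus second) of each inhibitor gene in 4 comparisons, with points for the edgeR estimate and bars for the 95% confidence interval. Only the intervals of Cdkn1c in Het 12M against WT 12M and of Cdkn1c and Cdkn2c in WT 12M against WT 3M lie to 1 side of 0, and the Cdkn1c intervals are the widest in all 4 panels.

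Several members varied together from culture to culture. Over the 17 cultures, Cdkn2a and the neighbouring Cdkn2b had a Spearman rho of 0.75 and a Pearson r of 0.76 (log2 CPM, a description across cultures that share their groups and scaling). After the group means were removed rho was 0.91. Without Het 12M S15 and S9, the 2 cultures farthest from the Cdkn2a median, r was 0.73. Het 12M S9 and S16, Het 3M S14 and WT 12M S13 had the lowest Cdkn2b levels and were also low in Cdkn2a. WT 3M S5 was low in Cdkn2a at 77.8 CPM, with 156 CPM of Cdkn2b.

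Cdkn2c ran the other way from Cdkn1a, with rho -0.76 and r -0.73, and rho -0.81 after the group means were removed. Het 12M S11 had the highest Cdkn1a, 814 CPM, and the lowest Cdkn2c, 9.65 CPM. Cdkn2c and Cdkn1c ran together, with rho 0.70 and r 0.71, and rho 0.78 after the group means were removed. Without the 3 cultures that stood apart, rho was -0.80 for Cdkn2c with Cdkn1a and 0.84 for Cdkn2c with Cdkn1c (n = 14). Cdkn2c and Cdkn2d had rho 0.62, which was 0.02 after the group means were removed, so their likeness lay between the groups. Of the 21 pairs of members, these 4 had the largest rho in size.

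**Figure D4:**
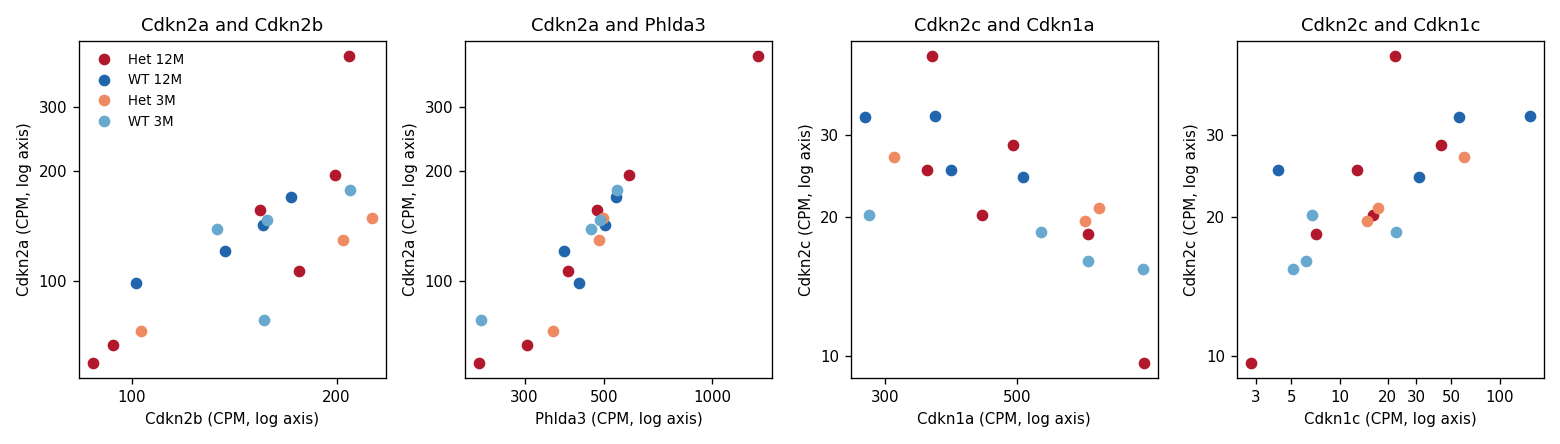
Levels of pairs of genes in the 17 cultures (TMM-scaled CPM, log axes on both), with 1 point per culture coloured by group. Cdkn2a rises with Cdkn2b (rho 0.75) and with Phlda3 (rho 0.95), and Cdkn2c falls with Cdkn1a (rho -0.76) and rises with Cdkn1c (rho 0.70).

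The genes whose pattern was most like each member were ranked by rho over the 17 cultures among the genes tested, with predicted genes left out. For Cdkn2a they were Phlda3 at 0.95, Rps4l at 0.89 and Rbpms2 at 0.89. Phlda3 ranged from 224 CPM in Het 12M S9 to 1344 CPM in Het 12M S15, the same cultures as the lowest and highest Cdkn2a. For Cdkn2b the values were 0.76 for each of L3hypdh, Rnf181 and Gtf2h3. For Cdkn2c they were 0.90 for Cst3, 0.89 for Idh2 and 0.89 for Alyref2, and for Cdkn2d 0.97 for Mogs, 0.96 for Ppdpf and 0.94 for Cdc42ep4. For Cdkn1a they were 0.86 for the pseudogene Gapdh-ps15, 0.84 for Nmt1 and 0.83 for Blcap. For Cdkn1b they were 0.80 for Snhg7, 0.79 for Smim8 and 0.77 for Idh1. For Cdkn1c they were 0.91 for Ifnar2, 0.90 for Sult5a1 and 0.89 for Ramp2. Sult5a1 was near the floor, at 0 to 2.37 CPM. Snhg7, at 0.760 to 8.96 CPM, and Gapdh-ps15, at 1.89 to 9.44 CPM, were also low. The closest genes to Cdkn2b and Cdkn1b, the members with the narrowest ranges, had the lowest rho.

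The inhibitors were set beside 12 other genes over the same cultures, of which those named here were chosen after their values were seen. The 12 were the Polycomb genes Ezh2 and Bmi1, the p53-axis genes Phlda3, Mdm2, Ccng1 and Btg2, and Cdk4, Ccnd1 and Mki67. The genomic neighbours Mtap, H19 and Igf2 completed them. Cdkn2a had a rho of -0.0049 with Ezh2 and of -0.63 with Bmi1, a Polycomb repressive complex 1 subunit. The Bmi1 value was -0.67 without the 3 cultures that stood apart. The summed level of the list of Polycomb and other regulators of Cdkn2a, which holds both genes, ran the other way from Bmi1, with a rho of 0.86 with Cdkn2a and of 0.81 without those 3 cultures. That sum is in CPM, so abundant genes outside Polycomb weigh most in it. In Het 12M S15, Id3 had 1414 CPM, Junb 630 CPM and Id1 356 CPM of a sum of 3320 CPM, and Ezh2 had 25.2 CPM. Het 12M S15 had the lowest Bmi1, 30.02 CPM, and the highest Cdkn2a. Mdm2, the p53 ubiquitin ligase that is itself a p53 target, had a rho of -0.74 with Cdkn1c, of -0.79 with Cdkn2c and of 0.53 with Cdkn1a. Mki67, a marker of dividing cells, had a rho of -0.42 with Cdkn2a, -0.03 with Cdkn1a and -0.04 with Cdkn1c. The list of 30 E2F targets and proliferation genes, which holds Mki67, did not share the first value. Its summed level had a rho of 0.11 with Cdkn2a, 0.13 with Cdkn1a and -0.25 with Cdkn1c. Het 12M S15 had 4.32 CPM of Mki67 and 1073 CPM of the summed list.

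The pathways around the inhibitors were read from lists, with 0 genes called on any list in any comparison by edgeR. In Het 12M against WT 12M, 27 of 30 E2F targets and proliferation genes were fitted lower, against 44.3% of all genes, with a median log2 difference of -0.50 against 0.05 over all genes. Mcm2, a replication helicase gene, was the 1 of them with an unadjusted p below 0.05, which 4.92% of all genes had in that direction. The summed level of that list was 480 to 1073 CPM in Het 12M and 362 to 1845 CPM in WT 12M. WT 12M S6 and S13 were high, at 1845 and 1451 CPM, and S2 and S7 low, at 362 and 415 CPM. Without S6, 18 of 30 were fitted lower and the median was -0.06.

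Of 26 genes of the ARF and p53 axis, 23 were fitted higher in Het 12M than in WT 12M, against 55.7% of all genes, and the median was 0.37. An unadjusted p below 0.05 was found for 5 of the 23, and for 3.42% of all genes in that direction. Without Het 12M S15, 18 of 26 were fitted higher, against 49.3% of all genes, and the median was 0.29. The count was 22 without Het 12M S9 and 24 without WT 12M S6. Btg2, an antiproliferative p53 target, averaged 255 ± 116 CPM in Het 12M and 97.9 ± 10.8 CPM in WT 12M (SD, n = 6 and 4), a log2 difference of 1.38 ± 0.37 with an edgeR adjusted p of 0.243. The lowest Het 12M culture had 144 CPM of Btg2 and the highest WT 12M culture 111 CPM. Cdkn1a itself, also a p53 target, was not on that list and had 0.43 ± 0.33 in the same comparison.

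The G1 cyclins and CDKs had 9 of 15 fitted lower in Het 12M than in WT 12M, against 44.3% of all genes, with a median of -0.08 against 0.05 over all genes. Ccnd3, a D-type cyclin, averaged 53.5 ± 13.01 CPM in Het 12M and 97.9 ± 14.1 CPM in WT 12M (SD, n = 6 and 4), a log2 difference of -0.87 ± 0.25 with an edgeR adjusted p of 0.281. RB and E2F genes had 11 of 17 fitted lower, with a median of -0.11. Of the Polycomb and other regulators of Cdkn2a, 20 of 31 were fitted lower, with a median of -0.18. Without WT 12M S6, the genes fitted lower were 4 of 15, 7 of 17 and 15 of 31 in these lists, in the same order. The share over all genes was then 42.0%, and the medians of the lists were 0.10, 0.05 and 0.01. Eed, a PRC2 core subunit, had a log2 difference of 0.49 ± 0.17, with an edgeR adjusted p of 0.427.

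In WT 12M against WT 3M the proliferation genes were fitted higher in 30 of 30 cases, against 53.8% of all genes, with a median log2 difference of 1.26 against 0.04 over all genes. Of these, 19 had an unadjusted p below 0.05, as 4.66% of all genes had in that direction. The summed level was 362 to 1845 CPM in WT 12M and 428 to 743 CPM in WT 3M, so S2 and S7 did not share the higher level. Without WT 12M S6, 28 of 30 were fitted higher, 2 of them with an unadjusted p below 0.05, and the median was 0.64. Genes of the ARF and p53 axis were fitted lower in 21 of 26 cases, against 46.2% of all genes, with a median of -0.31. An unadjusted p below 0.05 was found for 8 of them, and for 3.54% of all genes in that direction. Btg2 had a log2 difference of -1.55 ± 0.39 and an edgeR adjusted p of 0.442. Among G1 cyclins and CDKs, 11 of 15 were fitted higher, against 53.8% of all genes, with a median of 0.50, which was 0.23 without WT 12M S6. Cdk1 had 1.26 ± 0.47 with an edgeR adjusted p of 0.565. Both comparisons use the WT 12M cultures, so opposite signs in them are not separate observations.

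The same lists were read in the remaining comparisons. In Het 12M against Het 3M, 30 of 30 proliferation genes were fitted higher, against 57.7% of all genes, with a median of 0.63 against 0.07 over all genes. An unadjusted p below 0.05 was found for 1 of the 30, and for 1.58% of all genes in that direction. The p53 axis had 15 of 26 fitted higher and a median of 0.11. In Het 3M against WT 3M, 22 of 30 proliferation genes were fitted higher, against 47.5% of all genes, with a median of 0.08, against -0.02 over all genes, and 16 of 26 p53 axis genes lower, against 52.5% of all genes, with a median of -0.07.

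The remaining lists were described by their medians. For Het 12M against WT 12M, the median log2 difference was 0.08 for 15 genes of p27 and p21 turnover and 0.15 for 16 genomic neighbours of the inhibitors. It was -0.02 for 20 genes of FoxO, TGF-beta and related inputs, which include Myc, Zbtb17, Klf4, Klf6, Sp1 and Sp3. The median was 0.08 for 34 genes of a senescence list, which holds genes of the secretome and also Lmnb1, Hmgb1, Hmgb2 and Glb1. For WT 12M against WT 3M the medians were 0.04 for turnover, -0.13 for the neighbours, -0.20 for the FoxO and TGF-beta inputs and 0.19 for the senescence list. Of the senescence list, Mmp3, a stromelysin, had the smallest p in its direction in both. It averaged 39.8 ± 23.6 CPM in Het 12M (n = 6), 405 ± 264 CPM in WT 12M and 28.2 ± 8.17 CPM in WT 3M (SD, n = 4 each). The log2 difference was -3.35 ± 0.86 for Het 12M over WT 12M, with an edgeR adjusted p of 0.222, and 3.85 ± 1.02 for WT 12M over WT 3M, with an edgeR adjusted p of 0.485. Het 3M S14, at 302 CPM of Mmp3, was the highest culture outside WT 12M, and it had the highest Cdkn1c of Het 3M.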

How the data were processed

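The authors deposited a table of raw counts per Entrez Gene identifier, with 68 columns for 17 cultures of 4 lanes each. Per the submitters' processing notes, reads were handled with Subread and featureCounts on mm10. Versions, annotation, strand setting and treatment of multiply aligned reads are not given in the sources used here. All 68 columns were mapped and 0 left out. Lanes were summed per S number. RefSeq GRCm38.p6 gave a symbol to 25275 of 27179 identifiers. Counts were fitted with edgeR 4.0.16 in R 4.3.3 (TMM, filterByExpr, which kept 14897 genes, 1 term per group, quasi-likelihood F-test, 2-sided, Benjamini and Hochberg over all 14897 genes, threshold 0.05). No sex term was used in the main fit, since the labelled sex did not match sex-linked transcripts in the 4 WT 12M libraries. RPKM used the exon union of GENCODE vM21 basic. Correlations used log2 CPM with a prior count of 2. DESeq2 1.42.0 and limma 3.58.1 (voom) were alternatives, with RLE scaling, 2 other filters, 3 covariates, fits of 2 groups alone and leaving out cultures. Refits that left a culture out of the list counts, and one that summed Het 3M S8 and S10, were added after seeing the data. The procedure was tested on simulated data, with recovery of changed genes required only at a spread below that of these data. That test gives no limit of detection for these cultures. The members and lists were chosen with earlier results of these data known. All 7 members are named in every comparison, with the 3 genes most like each (predicted genes left out) and, since 0 list members were called, at most the list member with the smallest p in each direction. Mdm2, Bmi1 and Mki67 were chosen after their values were seen.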

Additional observations from a re-analysis of the deposited data

Results flagged for a closer look

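Of 24 gene and group combinations with 4 or more cultures, 4 had a culture far from the rest of its group by Dixon's gap-over-range criterion. Chance flags about 1 in 20 such groups, a rate for independent normal values, whereas these genes share the same cultures. Cdkn2d was 44.4 CPM in Het 12M S15, with the next of the 6 cultures at 16.9 CPM. Cdkn1b was 116 CPM in Het 12M S1, with the next at 75.3 CPM. Cdkn1c was 22.5 CPM in WT 3M S4, with the next of the 4 cultures at 6.78 CPM. Ezh2 was 9.17 CPM in WT 3M S12, below the next lowest at 13.4 CPM.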

How the results depend on the processing

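Of 35 differences (7 genes in 5 comparisons), 23 kept their sign in all 11 alternative settings and 17 fits with 1 culture left out. With voom quality weights 3 members were called in WT 12M against WT 3M and 2 in the interaction; the other counts stayed at 0 in every alternative. Signs that turned, none of them called, were as follows. With voom, Het 3M over WT 3M was 0.0011 for Cdkn1a, Het 12M over Het 3M -0.24 for Cdkn2c and -0.32 for Cdkn2d, and the interaction -0.20 for Cdkn2b. For Het 12M over Het 3M, Cdkn1a was 0.14 with the labelled sex and 0.0234 with the Y-linked covariate, Cdkn2d was -0.0662 with the proliferation covariate, and without the 3 cultures that stood apart Cdkn2c was -0.30, Cdkn2d -0.33 and Cdkn1a 0.0366. The Cdkn2b interaction was -0.0039 with the proliferation covariate. With Het 3M S8 and S10 summed as 1 culture, an alternative chosen after seeing the data, Het 3M over WT 3M was -0.0415 for Cdkn2b and Het 12M over Het 3M 0.0633 for Cdkn1a. The cause was not tested. Leaving out 1 culture at a time kept every count at 0, and gave sign changes in these ranges. Het 3M over WT 3M: -0.42 to 0.0391 for Cdkn2a, -0.10 to 0.38 for Cdkn2b and -0.29 to 0.21 for Cdkn1a. Het 12M over WT 12M: -0.19 to 0.50 for Cdkn2a and -0.0266 to 0.23 for Cdkn2b. WT 12M over WT 3M: -0.22 to 0.13 for Cdkn2a. Het 12M over Het 3M: -0.0098 to 0.72 for Cdkn2a, -0.15 to 0.28 for Cdkn2c, -0.24 to 0.36 for Cdkn2d, -0.37 to 0.11 for Cdkn1a and -1.34 to 0.10 for Cdkn1c. Interaction: -0.27 to 0.22 for Cdkn2b. No paired analysis was possible because the replicate numbers that groups share in the labels are sequencing lanes of 1 culture, and S numbers differ between groups.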
